A study of Mus musculus with 10 samples.

Results

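The genes described here drive and carry out the cell division cycle and the copying of DNA, and they were chosen by mouse symbol: the minichromosome maintenance genes Mcm2 to Mcm7 and Mcm10, the cyclins, cyclin-dependent kinases (CDKs) and their inhibitors, Cdc6, Cdc7, Cdc20, Cdc45 and the Cdc25 genes, the E2f, Aurk, Bub, Plk, Cenp and Ncap families, a set of mitotic kinesins, and Mki67, Top2a, Pcna, Tyms, Rrm2, Birc5 and Foxm1. The symbol rule took 90 of the 54532 genes in the count table and left out Cdkn1c. Of these, 89 had 10 or more counts in 5 or more libraries and were tested. The remaining gene, Cdkn2a, had 1 to 7 counts per library. RNA was measured in cochlear soft tissue of female mice at postnatal day 1, with both ears of an animal combined into 1 library. The 5 control animals were Esrrg fl/fl, with loxP sites around both copies of Esrrg, the gene of estrogen-related receptor gamma, and carried no Cre in their label. The 5 animals labelled cKO (conditional knockout) were Esrrg fl/fl;Sox10-Cre, so both groups carry the floxed alleles. Sox10-Cre acts in cells that use Sox10 regulatory sequence, such as otic epithelium, glia and melanocytes, while the dissected tissue also holds mesenchyme and blood vessels.

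In a dividing cell, cyclin D with Cdk4 or Cdk6 releases E2F transcription factors, which switch on the genes for DNA replication; the Mcm helicase is loaded at origins and fires with Cdc7 and Cdc45. Later, Foxm1 and related factors switch on mitotic genes, among them cyclin B, Cdk1, the Aurora and Polo kinases, kinetochore proteins, condensins and kinesins. In the mouse cochlea the prosensory cells that form hair cells and supporting cells leave the cycle before birth under the CDK inhibitor Cdkn1b, while mesenchyme, glia and other cells still divide in the newborn. Because the tissue was measured in bulk, fewer dividing cells and less RNA per dividing cell cannot be told apart.

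Library totals ran from 33.5 to 41.8 M counts (M, mega). The cochlear markers Oc90 and Tecta were high in each of the 10 libraries, at 1140 to 1550 and 879 to 1570 CPM (counts scaled to a library total of 1000000, with TMM factors). Esrrg (chr1:187608791-188214885, plus strand, GRCm38) went against the label: controls had 47.9 to 64.8 CPM and the libraries labelled cKO 70.5 to 109, a log2 fold change of 0.62 (SE 0.118, edgeR adjusted p = 0.0292; exact two-sided permutation p = 0.00794, the smallest the design allows). The call was lost on leaving out control 1, 3 or 5 or cKO 1, 2 or 5, with adjusted p up to 0.0998, and the Esrrg log2 fold change stayed between 0.54 and 0.70. Gene-level counts cannot show the loss of an exon, and each direction below depends on the label. Among the 10 libraries, control 2 had a first principal component of -29.46 and cKO 5 one of 17.34, the other 8 lying between -4.23 and 6.82. The level of longer genes was also lower in control 2 (correlation with length, across genes, -0.341, against -0.16 to 0.17 elsewhere). Over all 18061 tested genes, 98 were called lower and 13 higher in the libraries labelled cKO.

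Promoter sequence is shown for 3 replication genes and 3 mitotic genes, because the replication and mitotic groups are compared below and are known to be switched on through different promoter elements. Each run is the 150 bases before the RefSeq start of the gene, on the strand of the gene, in build GRCm38.p6. The windows are chr6:88898781-88898930 (minus strand), chr8:75109359-75109508 (plus strand), chr2:132253181-132253330, chr13:100786487-100786636, chr10:69352913-69353062 and chr7:135716380-135716529 (the last 4 on the minus strand). Capitals mark matches, on either strand, to the E2F words TTCGCGC, the word TTGGCGC and the word TTCCCGC, to the word TTTGAA of the cell cycle genes homology region (CHR), or to the NF-Y word CCAAT.
Mcm2: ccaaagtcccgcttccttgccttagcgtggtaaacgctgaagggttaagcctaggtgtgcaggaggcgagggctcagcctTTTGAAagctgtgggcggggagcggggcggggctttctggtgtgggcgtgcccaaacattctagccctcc
Mcm5: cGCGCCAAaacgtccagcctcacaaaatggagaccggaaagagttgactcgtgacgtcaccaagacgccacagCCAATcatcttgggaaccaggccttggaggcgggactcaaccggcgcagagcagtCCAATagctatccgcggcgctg
Pcna: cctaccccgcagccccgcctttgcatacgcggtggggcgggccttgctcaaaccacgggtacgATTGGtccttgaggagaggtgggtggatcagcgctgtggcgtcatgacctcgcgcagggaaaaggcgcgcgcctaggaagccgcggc
Ccnb1: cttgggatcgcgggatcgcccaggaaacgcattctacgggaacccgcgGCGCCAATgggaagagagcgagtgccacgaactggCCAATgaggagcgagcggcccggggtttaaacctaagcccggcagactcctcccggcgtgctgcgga
Cdk1: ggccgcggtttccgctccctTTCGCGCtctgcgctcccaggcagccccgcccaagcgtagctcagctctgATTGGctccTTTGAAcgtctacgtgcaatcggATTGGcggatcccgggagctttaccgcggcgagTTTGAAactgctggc
Mki67: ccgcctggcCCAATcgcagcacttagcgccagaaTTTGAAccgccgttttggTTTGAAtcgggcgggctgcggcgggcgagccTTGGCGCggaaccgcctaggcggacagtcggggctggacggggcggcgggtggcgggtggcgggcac

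In these windows Mki67 and Cdk1 each held 2 CHR words and 1 E2F word, with 1 NF-Y word in Mki67 and 2 in Cdk1. Mcm5 held 1 E2F word and 2 NF-Y words, Ccnb1 held the same numbers, Mcm2 held 1 CHR word alone and Pcna 1 NF-Y word alone. The words in these windows did not split by group: each mitotic gene held an E2F word, and among the replication genes only Mcm5 did. In Ccnb1 the E2F word and an NF-Y word share letters, and such a shared stretch was found in 3 of the member promoters and 147 of all promoters. The RefSeq table held 91 promoters for 79 of the 90 genes, each running from 250 bases before to 50 bases after the start. An E2F word was present in 38.5% of these and in 8.07% of all 32851 promoters, a CHR word in 36.3% against 17.9%, and an NF-Y word in 64.8% against 37.4%. Among 20 promoters of S-phase genes, 55.0% had an E2F word and 30.0% a CHR word; among 24 promoters of genes of the G2 and M phases, 29.2% had an E2F word and 75% a CHR word. These are counts of letters with no adjustment for base composition, and a match is not shown to be a working site.

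Per gene length, measured as FPKM (fragments per kilobase of gene, scaled to the library total, as the authors computed it), levels in control cochlea spanned from Cdk4 at 93.9 ± 13.7 to Cdkn2a at 0.0747 ± 0.045 (SD, n = 5). A count of 27 of the 90 genes had a control mean of 10 FPKM or more, 58 lay between 1 and 10, and 5 were under 1. The highest after Cdk4 were the centromere-binding protein gene Cenpb at 67.8 ± 5.79 FPKM, the replication clamp Pcna at 47.6 ± 10.0, the G1 cyclins Ccnd1 at 37.4 ± 5.29 and Ccnd2 at 34.5 ± 5.52, and the CDK inhibitors Cdkn1b at 31.2 ± 1.59 and Cdkn1a at 26.0 ± 0.873. In this order the control ranges overlapped between neighbours from Cenpb to Cdkn1b, and did not overlap between Cdk4 and Cenpb or between Cdkn1b and Cdkn1a. Markers of active division were lower per length: Top2a 14.1 ± 2.47, Mki67 10.4 ± 2.0, Cdk1 8.18 ± 2.01, Ccnb1 6.87 ± 1.19 and Plk1 5.84 ± 0.836 FPKM. The 5 genes under 1 FPKM were Mcm10, Cenpu, E2f7, Ccna1 and Cdkn2a. Of these top 7, 5 were genes of the G1 phase or CDK inhibitors.

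The main question was whether these genes differed between the genotypes. None of the 89 tested genes was called at an edgeR adjusted p under 0.05, where 0.615% of all tested genes were called (0.543% lower, 0.072% higher), and the smallest adjusted p among them was 0.433. DESeq2 and limma-voom also called 0 of the 89. Both called more of all tested genes than edgeR, as given in the last section. With so few genes called over all tested genes, 0 of 89 is near the share of all genes. At an unadjusted p under 0.05, 7 of the 89 (7.87%) passed, against 9.43% of all tested genes. All 7 were lower, where 5.62% of all genes were lower, and 0 were higher, where 3.81% were. That count of 7 was 18 without control 1, 16 without cKO 4, 3 without control 3, 4 without control 4, without cKO 1 or without cKO 2, and 0 without cKO 5. Shares of all tested genes are not given for these fits. The counts therefore cannot tell a change in these genes from a change over all tested genes. With a replicate block the count was also higher, as given in the last section. No gene of the 89 had CPM values without overlap between the genotypes, against 1.66% of all tested genes lower and 1.13% higher without overlap.

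The point estimates leaned one way. The log2 fold change was below 0 for 77 of the 89 genes (86.5%), where 52.3% of all tested genes were below 0, and the median was -0.16 where that of all tested genes was -0.01. Cell cycle genes vary together from animal to animal, so these 77 signs are not 77 separate observations, and no test was made on them. The 95% interval of the log2 fold change lay within ±0.5 for 45 of the 89 genes and within ±1 for 87, with a median width of 0.67. The median depended on single libraries: without cKO 5 it was -0.09, with 64 genes below 0, and without cKO 3 or without cKO 4 it was -0.22.

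**Figure D1:**
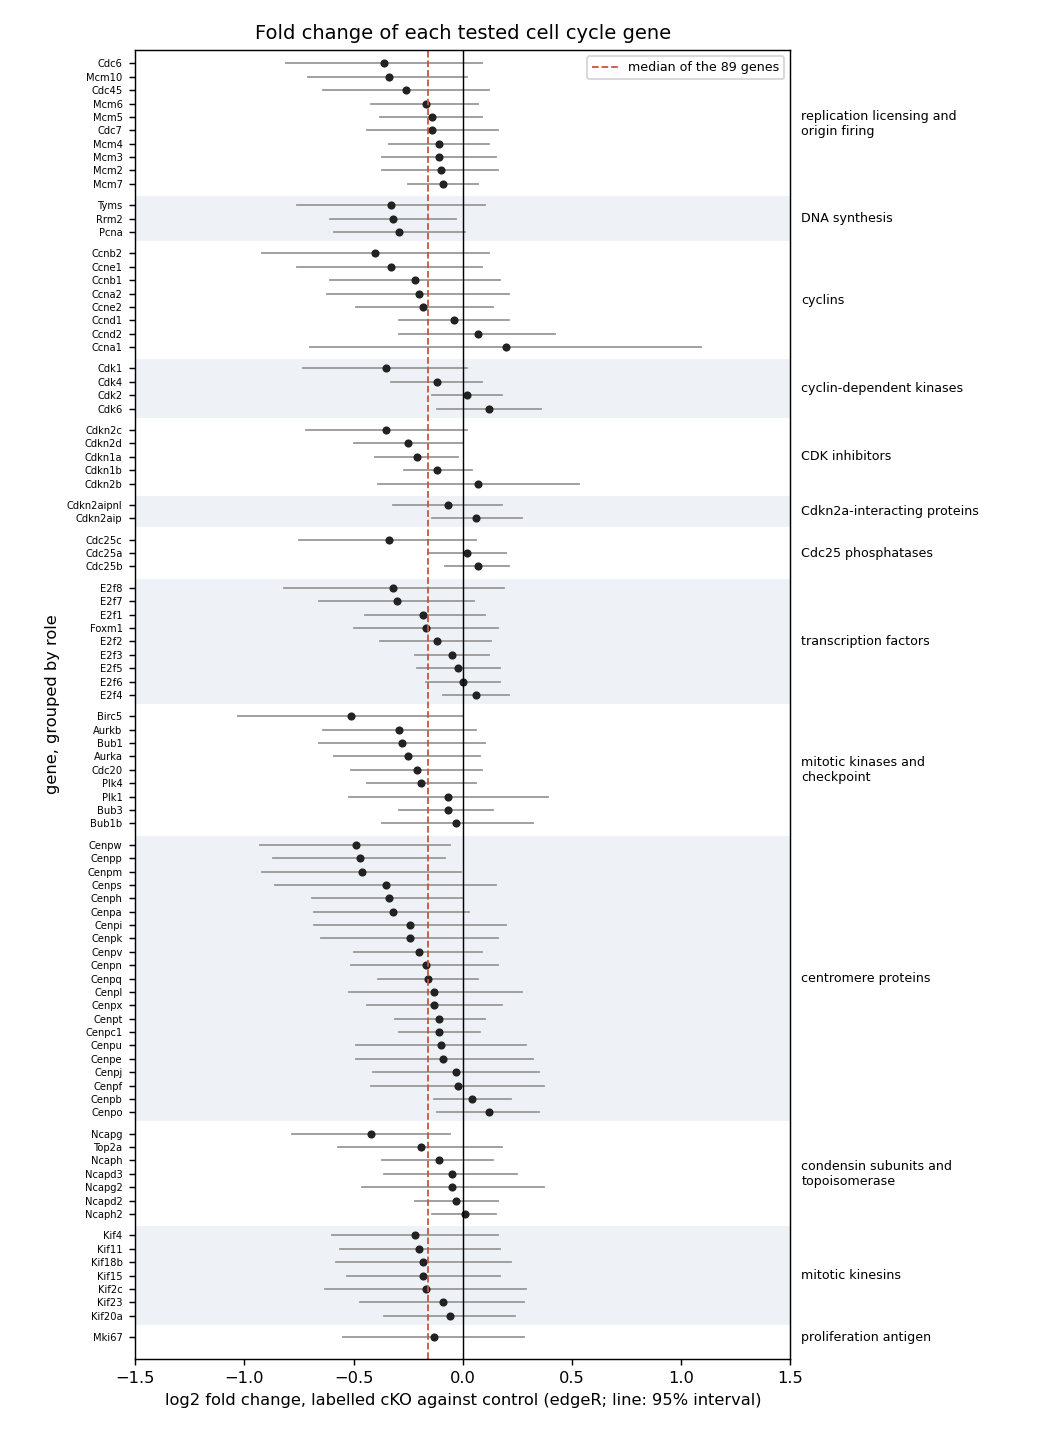
Log2 fold change (x axis, libraries labelled cKO against control) of each of the 89 tested genes (y axis, grouped by role), with points for the edgeR estimate and lines for its 95% interval. The dashed line marks the median of -0.16; most points lie left of 0, and no gene passed an adjusted p of 0.05.

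Genes of replication licensing and origin firing were considered first. All 10 had estimates below 0, from -0.36 for Cdc6, which loads the helicase, to -0.09 for the helicase subunit Mcm7, with a median of -0.14 and 0 calls. Mcm5, a helicase subunit, had 48.6, 55.1, 63.2, 58.3 and 52.5 CPM in controls 1 to 5 and 45, 50.9, 55.9, 59.0 and 40.3 CPM in cKO 1 to 5. The groups overlapped, with 2 cKO libraries under the lowest control. The log2 fold change of Mcm5 was -0.14 (95% interval -0.38 to 0.09, edgeR adjusted p = 0.687). Mcm2 was similar, with 57.7 to 75.2 CPM in controls, 49.5 to 75.3 in those labelled cKO, and an estimate of -0.10. Mcm10, a scaffold that joins the helicase to the polymerase, was low in both groups, with 7.63 ± 1.48 and 6.0 ± 1.31 CPM (SD, n = 5 each) and a log2 fold change of -0.34 (adjusted p = 0.556). Cdc45, which activates the helicase, had 10.6 ± 2.45 and 8.83 ± 1.83 CPM and a log2 fold change of -0.26. Exons of Mcm7 and Cdc45 overlap those of other genes, and the use of strand is not given in the sources used here.

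The 3 genes of DNA synthesis had estimates close to one another, between -0.33 and -0.29. Rrm2, the regulated subunit of ribonucleotide reductase, had 26.9, 39.8, 38.4, 35.3 and 35.6 CPM in controls 1 to 5 and 26.2, 27.0, 31.8, 34.6 and 21.3 CPM in cKO 1 to 5. Control 1 sat with the low cKO libraries and away from the other 4 controls. The log2 fold change of Rrm2 was -0.32 (SE 0.135) with an unadjusted p of 0.0323 and an adjusted p of 0.483. Pcna had 93.3, 151, 127, 108 and 95.8 CPM in controls and 86.0, 97.6, 101, 113 and 73.1 CPM in cKO 1 to 5. Control 2 was the highest library for Pcna, and without it the log2 fold change went from -0.29 to -0.18. Tyms, thymidylate synthase, had means of 30.3 ± 7.55 CPM (controls) and 24.1 ± 6.61 CPM (labelled cKO), with an estimate of -0.33 and a range of -0.47 without cKO 4 to -0.20 without cKO 5.

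Of the 8 cyclins, 6 had estimates below 0 and 0 were called. The G1 cyclins Ccnd1 and Ccnd2 had log2 fold changes of -0.04 and 0.07. Ccnd1 had 174, 141, 209, 190 and 175 CPM in controls and 143, 171, 200, 197 and 154 CPM in cKO 1 to 5, so the groups overlapped throughout. Ccnd2 was lowest in control 2, at 235 CPM against 342 to 365 in the other controls, and spread from 238 to 436 CPM in the libraries labelled cKO; without control 2 its estimate was -0.04. The sign of the estimates of Ccnd1, Ccnd2 and Ccna1 changed with the library left out, and that of Ccnd2 also under limma-voom and with the gene length offset and replicate block together. Ccne1, the cyclin of S-phase entry, had 15 ± 2.99 and 11.9 ± 3.41 CPM and a log2 fold change of -0.33 (95% interval -0.76 to 0.09). Ccna2, used in S and G2, had 29.6, 47.4, 49.2, 46.1 and 35.1 CPM in controls and 30.3, 37.1, 43.1, 47.8 and 21.4 CPM in cKO 1 to 5, an estimate of -0.20. Ccnb1, the mitotic cyclin, had 20.7 to 33.9 and 15.7 to 33.7 CPM and an estimate of -0.22, which was -0.10 without cKO 5. The germ-line cyclin gene Ccna1 had 7 to 33 counts per library and a wide interval of -0.70 to 1.09. Exons of Ccna1, Ccna2, Ccnd1, Ccnd2 and Ccne2 overlap those of a gene on the other strand.

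Among the 4 CDKs the mitotic kinase Cdk1 had the lowest estimate, -0.35 (SE 0.175, edgeR adjusted p = 0.559). Its values were 29.5, 54.9, 45.8, 38.6 and 34.6 CPM in controls and 28.9, 29.2, 36.8, 41.3 and 23.1 CPM in cKO 1 to 5. Control 2 was again the highest, and without it the log2 fold change was -0.22. The G1 kinases were close to 0: Cdk4, with 308 ± 44.6 and 284 ± 20.2 CPM, had an estimate of -0.12 (interval -0.33 to 0.09), and Cdk6, with 29.6 ± 4.68 and 32.1 ± 2.68 CPM, one of 0.12 (interval -0.12 to 0.36). For Cdk4 the estimate was -0.03 without control 2, which had 384 CPM against 275 to 306 in the other controls. Cdk2, Cdk4 and Cdk6 each share exon sequence with a gene on the other strand.

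CDK inhibitors, which hold cells out of the cycle, had estimates of the same sign as most genes above: of 5 tested, 4 were below 0 and 0 were called. Cdkn1a, the p53-responsive inhibitor p21, had 87.7, 95.3, 95.3, 92.4 and 94.8 CPM in controls and 95.6, 87.6, 75.9, 69.5 and 73.6 CPM in cKO 1 to 5. The controls lay close together, and 4 of the 5 libraries labelled cKO were under the lowest control, cKO 2 only just (87.6 against 87.7 CPM). cKO 1 was just above every control, at 95.6 CPM against 95.3 for the highest. The log2 fold change was -0.21 (SE 0.0889, interval -0.40 to -0.02) with an unadjusted p of 0.0326 and an adjusted p of 0.484, and it ran from -0.28 without cKO 1 to -0.16 without cKO 4. Cdkn1b, the inhibitor of prosensory cell cycle exit, had 150, 133, 138, 148 and 147 CPM in controls and 139, 130, 123, 123 and 145 CPM in cKO 1 to 5. Its estimate was -0.12 with a narrow interval of -0.27 to 0.04. Cdkn2c had 24.5 ± 6.23 and 19.2 ± 3.58 CPM and an estimate of -0.35, which was -0.23 without control 2. Cdkn2d, which helps to keep hair cells from re-entering the cycle and is named here after its values were seen, had 28.6 ± 5.48 and 24.1 ± 1.68 CPM. Its estimate of -0.25 was -0.12 without control 2, at 38.4 CPM the highest library. Cdkn2b was low, at 1.2 to 2.5 CPM, with an estimate of 0.07 that was -0.05 without control 3. Exons of Cdkn1a overlap those of an unnamed gene model on the other strand.

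**Figure D2:**
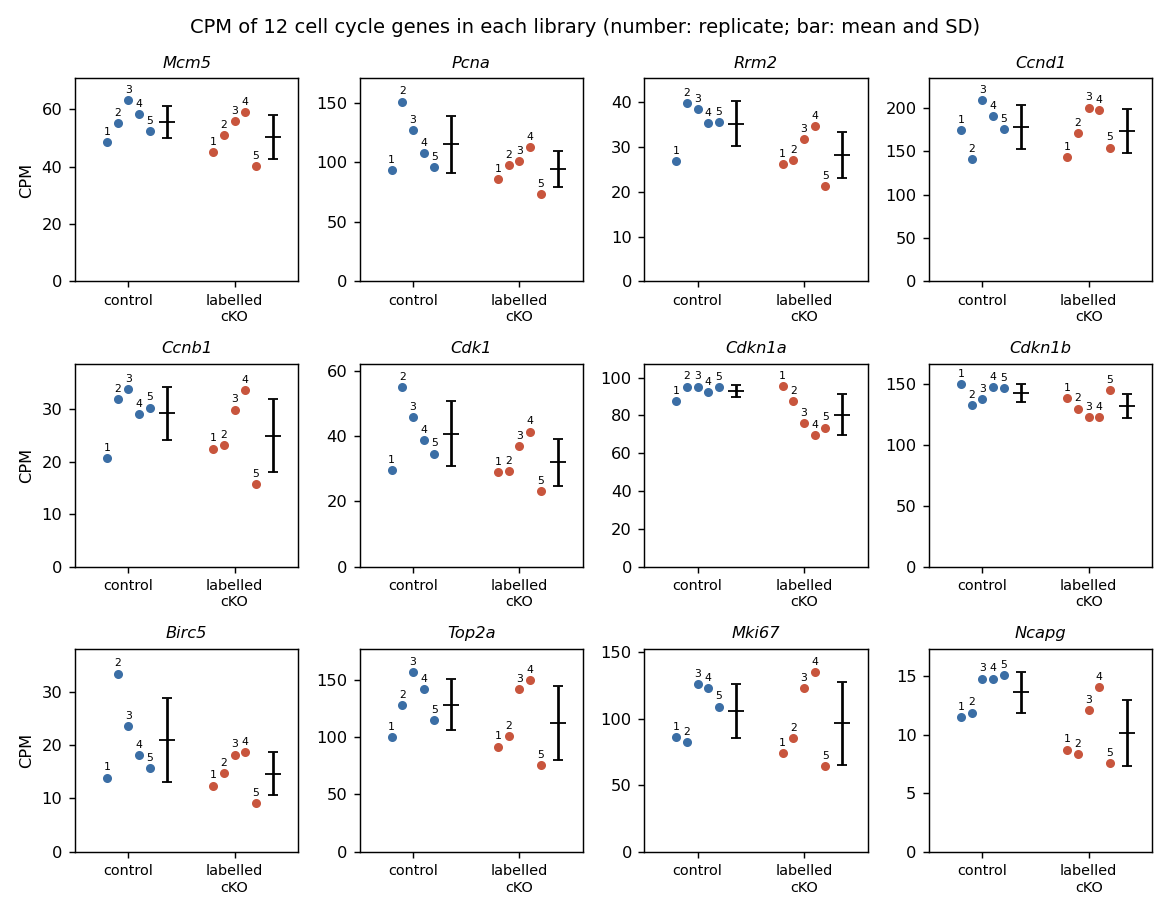
CPM (y axis, from 0) of 12 genes in each control library and each library labelled cKO (x axis; numbers give the replicate, bars the mean and SD of 5 libraries). The groups overlap for every gene shown, and cKO 5 is the lowest of the 10 libraries for Mki67, Top2a, Pcna, Cdk1, Ccnb1 and Birc5.

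The Cdc25 phosphatases, which activate CDKs, had estimates of -0.34 (Cdc25c), 0.02 (Cdc25a, or -0.03 with the gene length offset) and 0.07 (Cdc25b). Cdc25b was steady at 40.2 ± 1.69 and 42.1 ± 1.42 CPM, with an interval of -0.08 to 0.21. Of the 9 transcription factor genes, 8 had estimates below 0 and 0 were called. E2f1, an activator of S-phase genes, had 18.1, 27.6, 24.1, 22.6 and 20.4 CPM in controls and 17.7, 18.9, 23.1, 23 and 17.0 CPM in cKO 1 to 5, an estimate of -0.18 (interval -0.45 to 0.10). E2f4, the factor of resting cells, had 51.9 ± 2.53 and 54.1 ± 3.21 CPM and an estimate of 0.06 (interval -0.09 to 0.21). E2f7, a repressor induced late in S phase, had 6.69 ± 1.46 and 5.41 ± 0.805 CPM and an estimate of -0.30. Foxm1, the activator of mitotic genes, had 22.5, 23.5, 33.8, 34.4 and 28.1 CPM in controls and 21.4, 25, 30.0, 30.9 and 19.3 CPM in cKO 1 to 5. Its estimate of -0.17 was -0.08 without cKO 5. The 2 genes that the symbol rule takes for their names alone, Cdkn2aip and Cdkn2aipnl, encode no CDK inhibitor and had estimates of 0.06 and -0.07, the second of which changed sign under limma-voom, with the gene length offset and without control 2. Exons of Cdc25b, Cdc25c, Cdkn2aip, E2f7 and Foxm1 overlap those of another gene.

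Mitotic kinases and checkpoint genes had a median of -0.21, with all 9 estimates below 0. Birc5, survivin, the subunit that guides Aurora B, had the lowest estimate of all 89 genes, -0.51 (SE 0.238, unadjusted p = 0.0487, adjusted p = 0.529). Its values were 13.9, 33.4, 23.6, 18.1 and 15.7 CPM in controls and 12.4, 14.7, 18.2, 18.7 and 9.1 CPM in cKO 1 to 5. Control 2 was the highest of the 10 libraries, and without it the estimate was -0.29. Aurkb itself had 19.3 ± 2.99 and 15.7 ± 3.78 CPM and an estimate of -0.29. Bub1, a kinase of the spindle checkpoint, had 13.6 to 18.2 CPM in controls against 8.34 to 18.4 in those labelled cKO, an estimate of -0.28 that was -0.15 without cKO 5. Plk1, the Polo-like kinase of mitotic entry, had 11.3, 15, 14.9, 12 and 11.5 CPM in controls and 11, 9.41, 17.7, 16.4 and 7.2 CPM in cKO 1 to 5. Its highest and lowest libraries were both labelled cKO, and the estimate was -0.07, or 0.07 without cKO 5. Exons of Plk1 overlap those of a gene on the other strand.

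Centromere protein genes were the largest role, with 21 genes, 19 of them below 0, a median of -0.16 and 3 of the 7 genes at an unadjusted p under 0.05. Cenpp, of the constitutive centromere network, had the smallest p of all 89 genes (unadjusted p = 0.0217, adjusted p = 0.433) and an estimate of -0.47 (SE 0.183). It had 2.95, 5.11, 4.69, 3.74 and 4.59 CPM in controls and 2.67, 2.86, 3.39, 3.85 and 2.38 CPM in cKO 1 to 5, and its exons overlap those of Ippk and Aspn. Cenpw, of the same network, had 5.83, 13.5, 8.4, 8.48 and 8.67 CPM in controls and 6.57, 7.09, 5.81, 7.9 and 4.44 CPM in cKO 1 to 5. Its estimate of -0.49 was -0.30 without control 2. Cenpm was similar, with an estimate of -0.46 that was -0.33 without cKO 5. The histone variant Cenpa, which marks the centromere, had 26.5 ± 6.49 and 21.1 ± 3.44 CPM and an estimate of -0.32. The long motor protein gene Cenpe had 21.9 ± 2.45 and 20.6 ± 6.87 CPM and an estimate of -0.09, which was 0.04 without cKO 5. Cenpb, which binds centromere repeats and is abundant, had 334 ± 27.9 and 344 ± 20.4 CPM and an estimate of 0.04 (interval -0.13 to 0.22). Cenpo, with 8.32 ± 0.611 and 9.0 ± 0.865 CPM, had one of 0.12. Exons of Cenpb and Cenpo also overlap those of other genes.

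The last group holds the genes that shape and move chromosomes. Ncapg, a condensin subunit, had 11.5, 11.9, 14.8, 14.8 and 15.1 CPM in controls and 8.73, 8.35, 12.1, 14.1 and 7.55 CPM in cKO 1 to 5. A count of 3 of the libraries labelled cKO lay under the lowest control, and the estimate was -0.42 (SE 0.168, unadjusted p = 0.0258, adjusted p = 0.450), or -0.33 without cKO 5. The other condensin genes had estimates between -0.11 and 0.01. Top2a, the topoisomerase that untangles DNA, had 99.9, 128, 157, 142 and 115 CPM in controls and 91.7, 101, 142, 150 and 75.6 CPM in cKO 1 to 5. Its estimate of -0.19 (interval -0.57 to 0.18) was -0.08 without cKO 5. All 7 mitotic kinesin genes had estimates below 0, from -0.22 to -0.06, with 0 calls; Kif11, the motor that separates the spindle poles, had 39.0 ± 5.74 and 34.0 ± 9.65 CPM. Mki67, the common marker of dividing cells, had 86.3, 82.5, 126, 123 and 109 CPM in controls and 74.0, 85.3, 123, 135 and 64.0 CPM in cKO 1 to 5. The highest and the lowest of these 10 values were both in libraries labelled cKO. Its estimate was -0.13 (interval -0.55 to 0.28, adjusted p = 0.846), and -0.02 without cKO 5. Exons of Ncapg and Top2a overlap those of another gene.

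**Figure D3:**
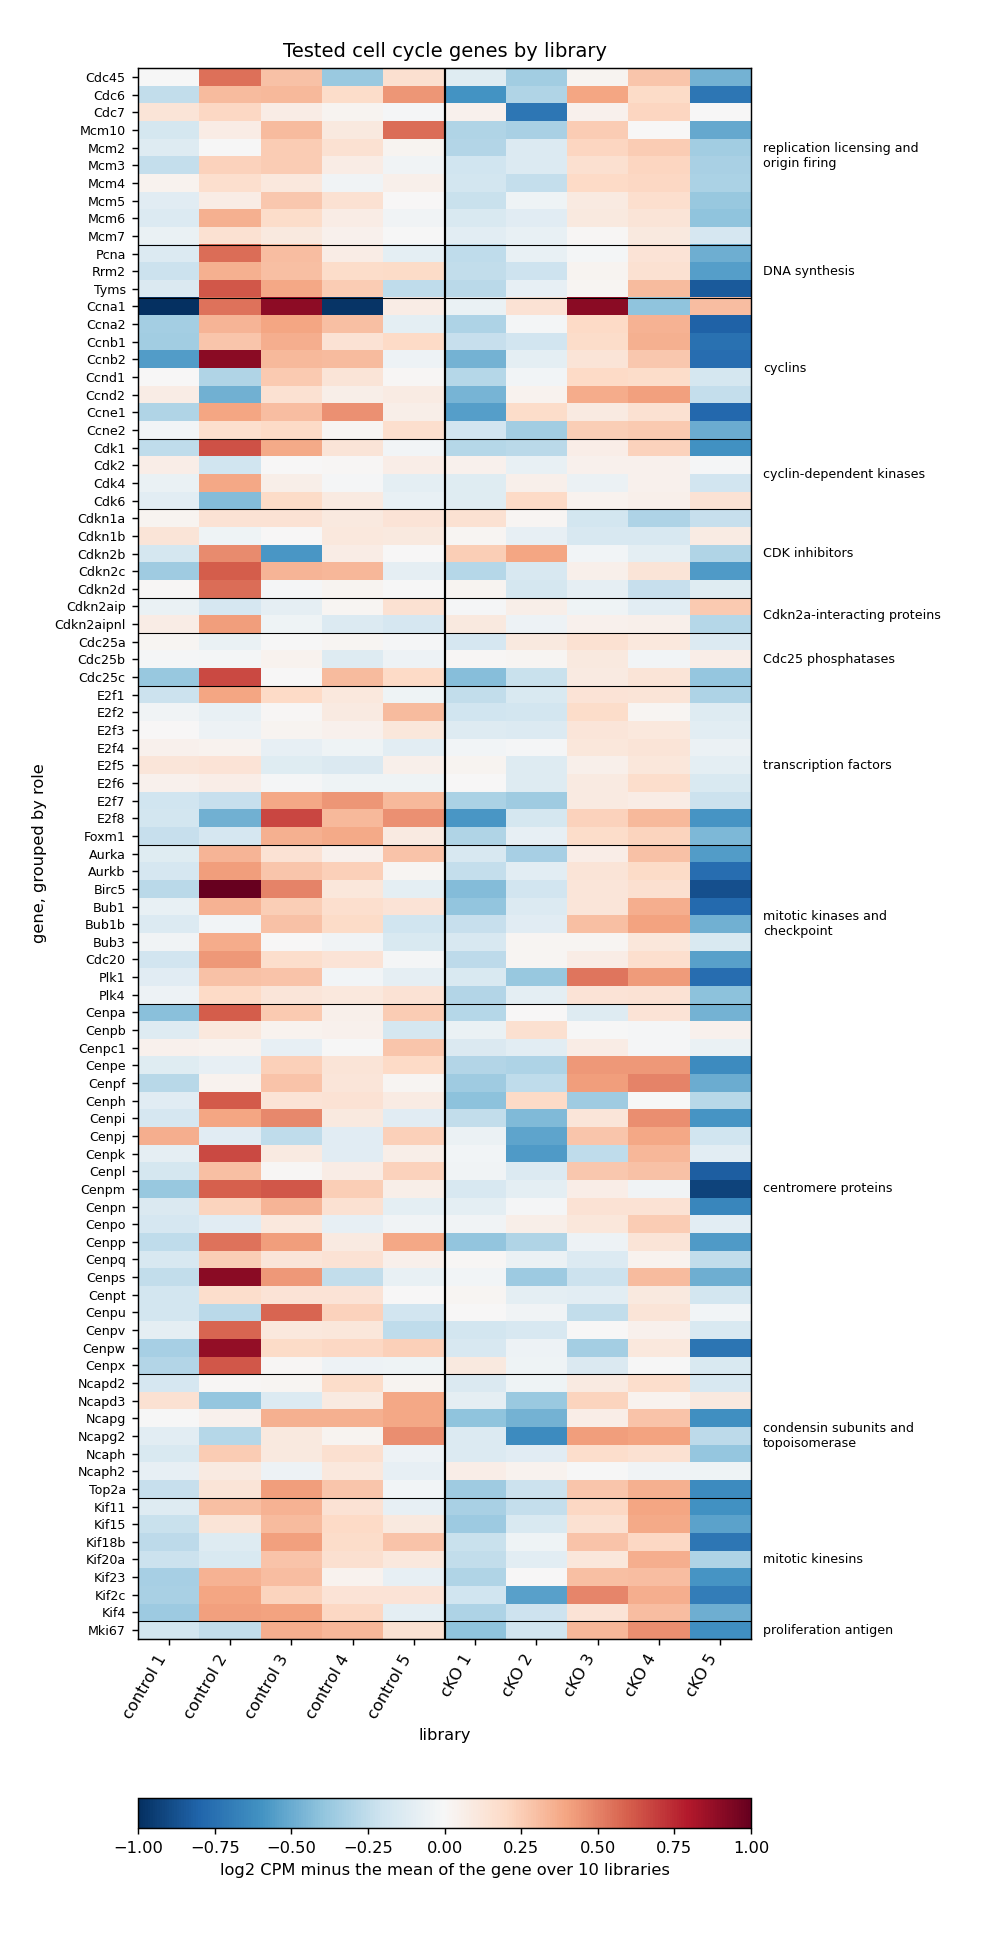
Log2 CPM of the 89 tested genes (rows, grouped by role) in each library (columns), as the difference from the mean of the gene over 10 libraries; colours are capped at 1 in either direction. Most mitotic and replication genes are low in cKO 5, cKO 1 and control 1 and high in cKO 4, cKO 3, control 2 and control 3.

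The median coefficient of variation of CPM over the 89 genes was 15.5% among controls and 19.3% among the libraries labelled cKO. cKO 5 was the lowest of all 10 libraries for 55 genes, and the lowest of its genotype for 62. cKO 4 was the highest of its genotype for 56 genes. Among controls, control 1 was lowest for 54 genes and control 2 highest for 44. The median deviation of the 89 genes from their own mean over 10 libraries was -0.14, 0.22, 0.20, 0.10 and 0.03 log2 units in controls 1 to 5. It was -0.19, -0.11, 0.10, 0.16 and -0.38 in cKO 1 to 5. Thus cKO 3 and cKO 4 lay among the upper controls, while cKO 5 lay apart below the rest.

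The library cKO 5 was lowest for both replication and mitotic genes. For 29 genes of the G2 and M phases the median deviation was -0.61 in cKO 5 and 0.31 in cKO 4; for 19 S-phase genes it was -0.40 and 0.17. For the 5 CDK inhibitors it was -0.23 in cKO 5 and -0.15 in cKO 4. The median log2 fold change was -0.18 for the S-phase genes, 18 of 19 below 0, and -0.19 for the G2 and M-phase genes, 28 of 29 below 0.

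**Figure D4:**
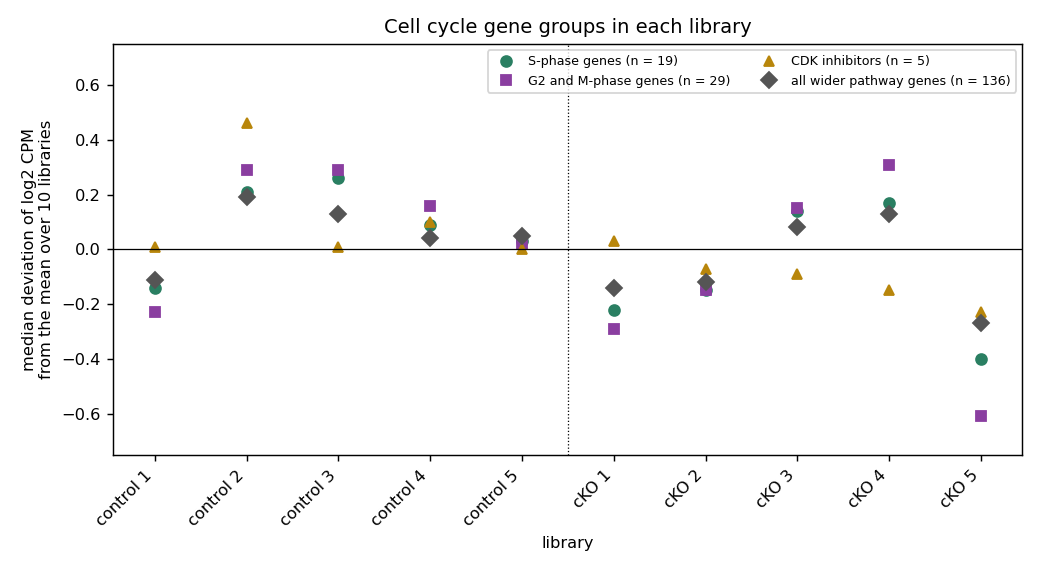
Median deviation of log2 CPM from the mean over 10 libraries (y axis) in each library (x axis) for S-phase genes, G2 and M-phase genes, CDK inhibitors and 136 other cell cycle genes. The G2 and M-phase genes run from -0.61 in cKO 5 to 0.31 in cKO 4.

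In control 2 shorter and longer genes had different medians. For the 45 shorter genes (exon length 1077 to 4338 bases) the median deviation in control 2 was 0.34, and for the 44 longer genes (4354 to 15433 bases) it was 0.05. In cKO 5 both classes were low, at -0.38 and -0.39. The median log2 fold change was -0.18 for the shorter and -0.13 for the longer genes. With an offset for gene length it was -0.14 and -0.15, and without control 2 it was -0.12 for both. The part of gene length in the shift was not tested.

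**Figure D5:**
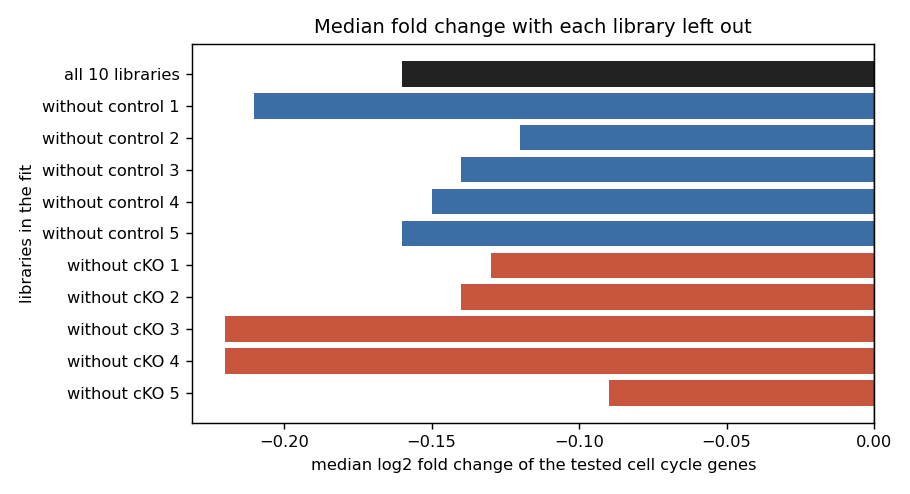
Median log2 fold change of the 89 tested genes (x axis) with all 10 libraries and with each library left out (y axis). The median stays below 0 in all 10 cases, between -0.22 and -0.09.

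A list of 136 other genes of the pathway was read from the same test. None was called by edgeR; at an unadjusted p under 0.05, 6 were lower (4.41%) and 2 higher (1.47%), both shares under those of all tested genes. The median log2 fold change was -0.13, with 115 of 136 (84.6%) below 0. Medians were -0.10 for 39 other genes of origins and the replication fork, -0.16 for 12 genes of nucleotide supply and chromatin assembly, and -0.16 for 26 other kinetochore and checkpoint genes. For 36 other genes of mitotic exit and cytokinesis the median was -0.17, and for 23 genes of G1 control and checkpoints it was 0.00, with 12 below 0. The smallest p was that of Ccnd3, the third D-type cyclin, which had 136, 129, 132, 132 and 125 CPM in controls and 168, 154, 150, 152 and 141 CPM in cKO 1 to 5. All 5 libraries labelled cKO were above every control. This was so for 1 of the 136 genes, where 1.13% of all tested genes were higher without overlap. DESeq2, given next for Ccnd3, called more of all tested genes than edgeR, as stated in the last section. The Ccnd3 log2 fold change was 0.22 (SE 0.0666, unadjusted p = 0.00475) with an edgeR adjusted p of 0.240, and 0.0407 with DESeq2; its exons overlap those of Bysl. Tk1, thymidine kinase, had an estimate of -0.33 (adjusted p = 0.469), and Chaf1b, a histone chaperone of replicating DNA, one of -0.26 (adjusted p = 0.496). Exons of Tk1 overlap those of Afmid.

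Markers of cell types and tissues, dividing or not at this age, are given beside these values. Of 8 erythroid genes tested all 8 had estimates below 0 and 1, Tfrc, was called; the summed level of the 9 genes in the table was 814 to 3020 CPM in controls against 504 to 1350 in those labelled cKO. The erythroid median deviation was 0.42, 1.16, -0.50, -0.40 and 1.08 in controls 1 to 5, and -0.12, 0.27, -0.56, -1.29 and 0.13 in cKO 1 to 5. For 7 Schwann cell and satellite glia genes the sum was 819 to 943 CPM in controls against 508 to 908 in those labelled cKO, with 6 of 7 below 0 and 0 called. The glial median deviation was 0.12, 0.33, 0.35, 0.23 and 0.19 in controls 1 to 5, and 0.01, -0.23, 0.18, -0.55 and -0.43 in cKO 1 to 5. For 6 genes of supporting and prosensory cells the sums did not overlap, at 297 to 388 CPM in controls against 248 to 292, with 4 of 6 below 0 and 0 called. Only 1 of the 6, Fabp7, had CPM without overlap, with means of 137 and 85.1 and an estimate of -0.68 (edgeR adjusted p = 0.140). Prox1 had an estimate of -0.54 (edgeR adjusted p = 0.273), Hes5 -0.12, Lfng 0.01 and Fgfr3 0.04, and the median of the list was -0.10. For 8 cochlear epithelium genes the sums overlapped, at 3790 to 4480 against 4210 to 4510 CPM, with 2 of 8 below 0 and 0 called. For 7 spiral ganglion neuron genes the sums were 860 to 985 against 539 to 1070 CPM, with 6 of 7 below 0 and 2, Elavl4 and Slc17a7, called lower. The summed ranges overlapped, with 0 called, for hair cells (98.6 to 130 against 98.5 to 124 CPM), melanocytes (271 to 344 against 303 to 353), macrophages (210 to 257 against 237 to 304), endothelial cells (443 to 526 against 486 to 526) and cartilage (11200 to 13900 against 11800 to 14700). The cartilage sum was mostly Col2a1, and other cartilage genes varied widely, Comp from 4.69 to 96.7 CPM in controls. The cartilage median deviation ran from -0.69 in control 4 to 0.95 in control 3, and from -0.57 in cKO 5 to 0.70 in cKO 2. Neutrophil and skeletal muscle genes summed to at most 10.8 and 4.08 CPM. For 6 brain genes, at 19.7 to 26.1 against 8.21 to 11.5 CPM in sum, 4 of the 5 tested were called lower. These were Olig1, Olig2, Aqp4 and Cbln1, with low control means of 7.19, 2.15, 6.21 and 3.61 CPM. Gfap was not called (edgeR adjusted p = 0.61), and Neurod6 was not tested. Sums for otic mesenchyme were 9000 to 11100 and 10100 to 11500 CPM, with 2 of 7 below 0. The part of any of these cells in the small shift of the cell cycle genes was not tested.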

How the data were processed

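Polyadenylated RNA of 10 cochlear samples was read as paired ends of 150 bases, per the labels' protocols. For each Ensembl gene the deposited files give whole-number counts, and, in another table, FPKM computed by the authors. The submitters' processing notes name STAR 2.5, HTSeq 0.61, DESeq2 2 and the build mm10, with no role or order; annotation and strand setting are not given in the sources used here. Columns were matched to samples by the library name in the labels. Symbols and positions came from GENCODE release M21 (GRCm38), which held 54495 of the 54532 gene IDs. The merged exon length of that release matched the length implied by the deposited counts and FPKM within 1% for 95.68% of 13928 well-counted genes.

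Genes with 10 or more counts in 5 or more libraries (18061) were tested with edgeR 4.0.16 (TMM, robust quasi-likelihood F-test, genotype as the only term, Benjamini-Hochberg over all tested genes), after a check on simulated data. Totals of 33.5 to 41.8 M counts (M, mega) set the depth. Standard errors came from the F statistic. Alternatives used other filters, scalings, DESeq2 1.42.0, limma 3.58.1 (log2 of FPKM plus 1 or 0.1, and voom), a gene length offset, a replicate block, other thresholds and leaving out each library. Named genes were the members at the smallest p in each direction (6 each), any called or without overlap (0), and a fixed panel spread over the roles; wider pathway genes were the 3 with the smallest p; others are named after their values were seen, mostly as the extremes of their role. The members and lists were chosen with earlier results of these data known.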

Additional observations from a re-analysis of the deposited data

Results flagged for a closer look

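In each group of 5 libraries, 69 measures (the tested cell cycle genes given with estimates, Esrrg, Oc90, Tecta and the gene groups) were searched for a highest or lowest value with a gap of over 0.71 of the group's range (the critical value of Dixon's test). Chance gives about 6.9 in 138 groups; 3 were found, each in control 2. Ccnd2 was low there, at 235 CPM against 342 to 365 in the other controls, while Cdk4 was high, at 384 CPM against 275 to 306, and so was Cdkn2d, at 38.4 CPM against 25.9 to 26.6.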

How the results depend on the processing

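Of the 89 tested genes 0 were called under each of the 26 alternatives, thresholds and left-out libraries, and their median log2 fold change lay between -0.18 and -0.12 over the 14 settings with all libraries and between -0.22 and -0.09 with 1 library left out. Same-numbered libraries of the 2 genotypes deviated together weakly (correlations 0.086, 0.176, 0.094, 0.023 and 0.18), yet 3 of 5 controls correlated best with their own number. Whether the numbers mark pairs was not settled by these values. The main fit did not take them as pairs, and the block is given as an alternative. With the replicate block 0 of the 89 were called, 21 were lower at an unadjusted p under 0.05 (22 with the gene length offset as well; 6.82% of all tested genes with the block alone), the median was -0.17, 97 genes were called among all tested genes and the Esrrg log2 fold change was 0.61 (adjusted p = 0.0623). The call of Esrrg was also lost with limma on log2(FPKM + 1) at 0.57, on log2(FPKM + 0.1) at 0.61, and with the gene length offset and replicate block together at 0.58, and its log2 fold change ran from 0.54 to 0.70 with 1 library left out, where 6 of 10 lost the call. Among all tested genes, DESeq2 called 307 and limma-voom 352, while edgeR called 47 at an adjusted p under 0.01 and 51 to 194 with 1 library left out. Of the wider pathway 1 gene, Ccnd3, was called with DESeq2. The sign of small estimates changed for Ccnd2 (-0.02 with limma-voom, -0.01 with the gene length offset and replicate block, -0.04 to 0.17 with 1 library left out), for Cdk6 (-0.00 with limma-voom), for Cdc25a (-0.03 with the gene length offset, with or without the replicate block, -0.01 to 0.07 with 1 library left out) and for Cdkn2aipnl (0.05 with limma-voom, 0.01 with the gene length offset, with or without the block, -0.12 to 0.04 with 1 library left out). Among the 50 members and wider pathway genes given with estimates, it also changed with 1 library left out for Ccna1 (-0.03 to 0.50), Cdkn2b (-0.05 to 0.21), Ccnd1 (-0.12 to 0.02), Cenpe (-0.22 to 0.04) and Plk1 (-0.23 to 0.07). The cause of these changes was not tested. For 44 of the 89 genes the 95% interval reached past a change of 0.5 log2 units, which the number of animals limits.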
